A study of Rattus norvegicus with 59 samples.

Results

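The neurotrophin genes Bdnf and Ntf3 and the receptor genes Ntrk2 and Ntrk3 were described in 5 brain regions of 2 inbred rat lines. The members are 4 of the 4736 genes named by a single symbol on the array. Their probe sets were all those whose annotation gives a single gene symbol that is one of these 4, which yielded 13 of the 8740 probe sets that are not controls. Bdnf had 7 probe sets, and Ntf3, Ntrk2 and Ntrk3 had 2 each. Of the 13, 6 passed the signal filter and were tested, namely 3 of Bdnf and 1 of each other gene. The other 7 were dim and are given as levels, with tests only in a setting without that filter. The annotation does not say which transcript variant a probe set reads.

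The animals were adult male rats of the alcohol-preferring line iP (iP5C) and the non-preferring line iNP (iNP1), both selectively bred and inbred. No treatment is labelled for either line. Rats were handled daily for 10 days and killed in the morning, and RNA of each rat and region was labelled and hybridised on its own. Each line gave 6 animals for striatum, hippocampus, amygdala and accumbens. The cortex, dissected as frontal cortex, gave 5 iP and 6 iNP arrays, so that 59 arrays were used. Each line is 1 inbred strain, so a difference between the lines holds for these strains.

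Neurotrophins are small secreted proteins that act on neurons through receptor tyrosine kinases of the Trk family. Brain-derived neurotrophic factor, encoded by Bdnf, binds TrkB, the product of Ntrk2, and neurotrophin-3, encoded by Ntf3, binds chiefly TrkC, the product of Ntrk3. A bound Trk receptor signals through Ras and MAP kinase, PI3 kinase and Akt, and phospholipase C gamma, and BDNF is known for its part in synaptic plasticity. In the adult rodent brain, Ntf3 transcripts are known from the dentate gyrus of the hippocampus. Much of the Bdnf protein of the striatum is known to arrive by axonal transport from cortex. Ntrk2 also gives truncated receptor variants that lack the kinase domain and are made by astrocytes.

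Ntf3, and Bdnf by 2 of its 3 tested probe sets, had their highest mean level in hippocampus, so the 250 bases before their annotated starts are shown, taken from RefSeq on the GRCr8 assembly and written in the direction of transcription. The table matched 2 of the 4 genes, and Ntrk2 and Ntrk3 are named only. Capitals mark matches, on either strand, to the letters CANNTG (the E-box, bound by basic helix-loop-helix factors such as the product of Neurod1) or GGGCGG (a GC box). The letters TGACG, shared by cyclic AMP elements, were also searched for. The motifs do not overlap in these windows.
Bdnf, chr3:116619383-116619632 (+ strand): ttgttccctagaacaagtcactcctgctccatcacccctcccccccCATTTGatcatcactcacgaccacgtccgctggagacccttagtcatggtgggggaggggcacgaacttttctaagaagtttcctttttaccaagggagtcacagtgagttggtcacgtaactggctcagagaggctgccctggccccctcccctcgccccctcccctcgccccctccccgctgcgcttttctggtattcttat
Ntf3, chr4:160670624-160670873 (− strand): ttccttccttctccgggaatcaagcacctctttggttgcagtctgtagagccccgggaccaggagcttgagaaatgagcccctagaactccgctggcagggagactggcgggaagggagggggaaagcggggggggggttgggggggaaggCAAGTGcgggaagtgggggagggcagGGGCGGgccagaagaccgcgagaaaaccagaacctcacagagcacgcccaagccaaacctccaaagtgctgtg
The Bdnf window held 1 E-box, beginning 204 bases before the start. The Ntf3 window held 1 E-box, 99 bases before the start, and 1 GC box, 73 bases before it. TGACG was in neither window. Of 27457 annotated windows of this length, 65.2% held an E-box, 32.4% held the GC box and 19% held TGACG, so the matches describe these letters and no more. The GC content was 57.6% for Bdnf and 62.8% for Ntf3, against a median of 52% over all windows. Bdnf has several known promoters and the table gives 1 start.

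Signals are the deposited array intensities, on which every array has the same trimmed mean. The median probe set had a signal between 254 and 393 on each array. By the correlation of its whole profile with the region means, 54 of the 59 arrays were nearest to their own region. Of the other 5, cortex iP animal 5 was nearest to amygdala (r 0.28, against −0.20 with cortex) and amygdala iP animal 1 was nearest to cortex (r 0.28, against −0.21 with amygdala). Amygdala iNP animals 7 and 8 were nearest to accumbens, and accumbens iP animal 4 to amygdala. Whether samples were exchanged or mixed was not tested. Such arrays are unlike their own region's mean, so leaving them out can by itself enlarge differences between regions. Cortex iP animal 5 also had a log2 ratio of the 3′ to the 5′ Gapdh probe set of 6.14, while the other 58 arrays lay between −0.15 and 0.44. The labelled regions were checked against marker genes. Of 7 genes that mark medium spiny neurons, 6 were higher in striatum and 7 in accumbens, and 6 of 6 hippocampal neuron markers were higher in hippocampus. Of 5 amygdala markers 0 were higher in amygdala and 1 was lower, while 3 were higher in accumbens. Their summed signal ran from 3565 to 4665 in accumbens, against 1551 to 2814 elsewhere. For cortex only 1 projection neuron marker could be tested, which was higher by 0.65. That marker was also called higher in striatum (0.33) and in hippocampus (0.24), so it did not single out cortex. In bulk tissue, fewer cells of a type and less RNA per cell cannot be told apart.

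**Figure D1:**
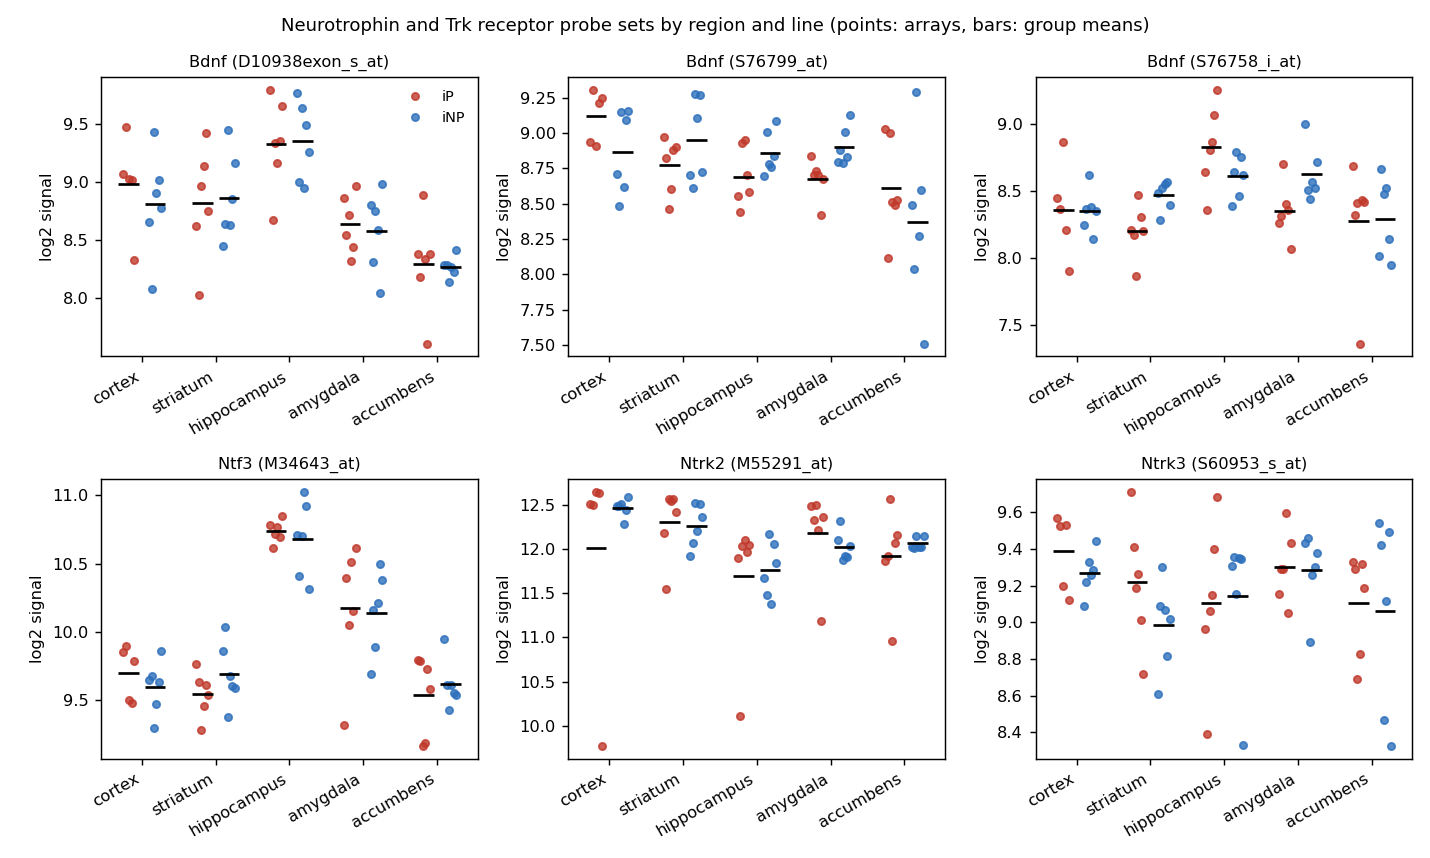
Log2 signal of the 6 tested probe sets on each array, by region, with iP (red) left of iNP (blue) and a bar at each group mean. Ntf3 stands apart in hippocampus, the Bdnf probe set D10938exon_s_at runs from a high in hippocampus to a low in accumbens, and a single low iP array pulls the Ntrk2 group mean down in cortex.

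Ntf3, the ligand of TrkC, had the smallest adjusted p among the members in any comparison of regions, in hippocampus. In hippocampus the probe set M34643_at had signals of 1271 at the lowest, 1677 at the median and 2082 at the highest over 12 arrays. The amygdala arrays ran from 639 through a median of 1168 to 1572. The cortex arrays ran from 629.7 through 803 to 951, the striatum arrays from 622 through 779 to 1050.2, and the accumbens arrays from 574 through 774 to 987. Every hippocampus array was above every cortex, striatum and accumbens array, and the hippocampus and amygdala ranges overlapped.

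Against the mean of the other 4 regions, Ntf3 was 1.94-fold higher in hippocampus (log2 difference 0.96 ± 0.08 SE, limma adjusted p = 1.32e-13). The 95% interval of that log2 difference ran from 0.79 to 1.12. In each of the 12 animals the hippocampus value exceeded the mean of the same animal's other regions. Amygdala was higher than the other regions by 0.27 ± 0.08 (adjusted p = 0.0117), a call lost without iP animal 4 (0.22, adjusted p = 0.0550). Without cortex iP animal 5 and amygdala iP animal 1 the amygdala difference was 0.36, and without all 5 arrays that were nearest to another region it was 0.45. Ntf3 was lower than in the other regions by log2 differences of −0.36 in cortex, −0.41 in striatum and −0.46 in accumbens, all with SE 0.08. Their adjusted p-values were 0.00137, 0.000223 and 1.93e-05.

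The order of Ntf3 levels was hippocampus, then amygdala, then cortex, striatum and accumbens. Hippocampus exceeded amygdala by 0.55 (adjusted p = 3.53e-05), and amygdala exceeded cortex by 0.50 (adjusted p = 0.000275). Cortex minus striatum was 0.04 with a 95% interval from −0.17 to 0.25, and striatum minus accumbens was 0.04 with an interval from −0.17 to 0.25, so the order among these regions was not resolved.

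The second Ntf3 probe set, E03082cds_s_at, was dim, with a median of 50.4 over all arrays and 6 arrays under the floor of 16 that was set before taking logarithms. It was nevertheless brighter in hippocampus, at 127 at the lowest, 282 at the median and 424 at the highest. Its medians were 116 in amygdala, 20.8 in cortex, 33.8 in striatum and 23.4 in accumbens. In 12 of 12 animals hippocampus was above the mean of the animal's other regions. The Pearson r between the 2 Ntf3 probe sets was 0.70 over the 59 arrays, which share animals and regions. In amygdala the signals of E03082cds_s_at were 94.8, 152 and 201 in iP (lowest, median, highest), against 32.8, 47.9 and 139 in iNP, and these ranges overlapped. In accumbens its median was lower in iP, at 19.3 against 38.6 in iNP.

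**Figure D2:**
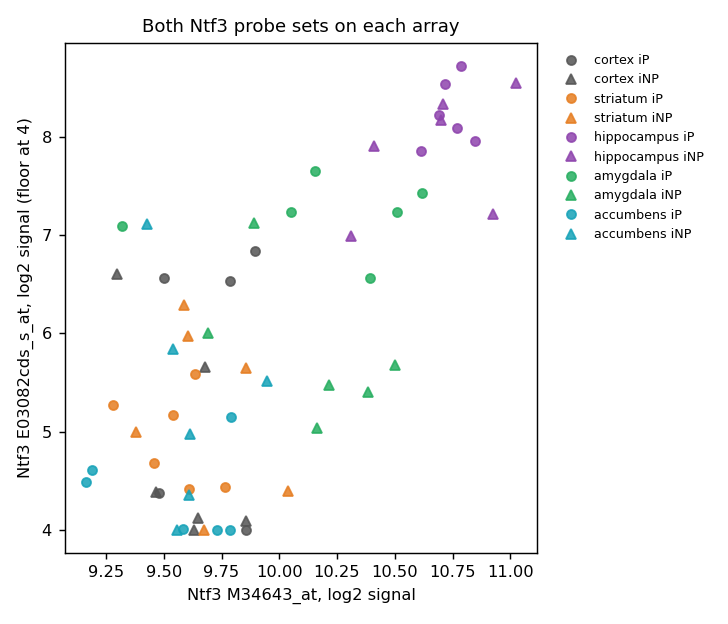
Log2 signal of both Ntf3 probe sets on each of the 59 arrays, with M34643_at along the horizontal axis and E03082cds_s_at, floored at log2 of 16, along the vertical axis; circles are iP, triangles iNP, colours regions. The 12 hippocampus arrays lie at the upper right, from 10.31 upwards on the horizontal axis.

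Bdnf, the ligand of TrkB, was highest in hippocampus and lowest in accumbens by its probe set D10938exon_s_at. That set and S76799_at, described after it, had near equal signals, with medians of 439 and 443 over all arrays. Hippocampus arrays had signals of 409 at the lowest, 650.3 at the median and 886 at the highest. In cortex these were 271, 517 and 708, in striatum 261, 447 and 696, and in amygdala 264, 402 and 506. In accumbens they were 195, 313 and 473. The hippocampus range overlapped that of every other region on single arrays.

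Within animals the pattern was regular. Hippocampus was above the mean of the animal's other regions in 12 of 12 animals, and accumbens was below it in 12 of 12. Against the other regions D10938exon_s_at was 1.60-fold higher in hippocampus (log2 difference 0.68 ± 0.11 SE, limma adjusted p = 1.71e-06). In accumbens it was lower, at 0.642 of the others (−0.64 ± 0.11, adjusted p = 7.40e-06). Amygdala was at −0.23 (adjusted p = 0.110), cortex at 0.13 (0.475) and striatum at 0.06 (0.797). The largest pair was hippocampus minus accumbens, a 2.08-fold difference (1.05 on the log2 scale, adjusted p = 1.58e-08). Hippocampus exceeded its neighbour in the order, cortex, by 0.44 (coded as cortex minus hippocampus, −0.44, adjusted p = 0.0188), a call lost without iNP animal 7 (−0.37) or iNP animal 8 (−0.39). Cortex and striatum (0.863), striatum and amygdala (0.222) and amygdala and accumbens (0.0818) were not separated at their adjusted p-values.

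The other Bdnf probe sets gave this pattern in part. S76758_i_at, which represents its target with an incomplete probe set, was higher in hippocampus by 0.35 ± 0.10 (adjusted p = 0.00386), with signals of 327, 415 and 609 (lowest, median, highest). Its accumbens difference of −0.19 was not called (adjusted p = 0.155). S76799_at did not differ detectably in hippocampus (0.00, 95% interval −0.20 to 0.19) and was lower in accumbens by −0.36 ± 0.10 (adjusted p = 0.00486). Its highest mean level was in cortex, at signals of 359, 545 and 632, and its accumbens arrays ran from 182 through 363 to 627. Over the 59 arrays, D10938exon_s_at had a Pearson r of 0.31 with S76799_at and 0.40 with S76758_i_at.

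Of the 4 dim Bdnf probe sets, rc_AI030286_s_at was above the mean of the other regions in hippocampus, and below it in accumbens, in 12 of 12 animals each. Its medians were 212 in hippocampus, 184 in amygdala, 148 in striatum, 124 in cortex and 94.96 in accumbens. X67108_at was above that mean in hippocampus in 9 of 12 animals and below it in accumbens in 11, with medians of 137 and 78.0. S71201mRNA_at and S71196mRNA_s_at varied widely between arrays of 1 region. S71201mRNA_at had hippocampus signals of 152, 231 and 305 in iP (lowest, median, highest), against 45.2, 101 and 195 in iNP, and accumbens signals of 127, 246 and 342 in iP, against 42.7, 139 and 216 in iNP. The lines overlapped in both regions. In hippocampus S71196mRNA_s_at ran from 46.9 to 242. Hippocampus was above the animal's other regions in 5 of 12 animals for each of them.

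Ntrk2, which encodes the BDNF receptor TrkB, was lower in hippocampus than in the other regions by its tested probe set. M55291_at had hippocampus signals of 1109 at the lowest, 3914 at the median and 4622 at the highest. Striatum had 2984, 5373 and 6082, cortex 874, 5779 and 6399.8, amygdala 2338, 4581 and 5794, and accumbens 1996, 4163 and 6068. Hippocampus was lower than the other regions by −0.43 ± 0.16 (limma adjusted p = 0.0351), and it was lower in 10 of 12 animals. The ranges overlapped between all regions.

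That call was close to the threshold. It was lost when any 1 of 8 animals was left out, with the adjusted p lying between 0.0507 and 0.164, with no filter on dim probe sets (0.0519) and with no block for the animal (0.0501). Without iP animal 2, whose hippocampus array had the lowest signal, the difference was −0.29. Without cortex iP animal 5 and amygdala iP animal 1, hippocampus stood at −0.49 (adjusted p = 0.000740) and cortex, uncalled with all arrays at 0.25 (adjusted p = 0.323), was higher by 0.50 (adjusted p = 0.00171). Without all 5 arrays nearest to another region, these differences were −0.50 in hippocampus and 0.49 in cortex. As these arrays were picked by their region profile, these values are no independent check. The means fell in the order striatum 12.28, cortex 12.26, amygdala 12.10, accumbens 11.99 and hippocampus 11.73 on the log2 scale, and no neighbours in that order were called, at adjusted p-values between 0.382 and 0.991. Hippocampus was separated from striatum (adjusted p = 0.0409) and from cortex (0.0438), calls that were lost in 12 and 14 of 21 other settings.

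In each region 1 iP array gave a low Ntrk2 signal. The 5 cortex iP arrays had 5817, 5779, 6399.8, 6368 and, in animal 5, 874. The low arrays were animal 2 in striatum and hippocampus, animal 5 in amygdala and animal 4 in accumbens. The SD of log2 signal within a group was 1.25 for iP and 0.10 for iNP in cortex, and 0.78 and 0.32 in hippocampus. It was 0.40 and 0.24 in striatum, 0.50 and 0.17 in amygdala, and 0.53 and 0.07 in accumbens. Beside these, the log2 Gapdh ratio was 6.14 on the cortex array, 0.44 on the amygdala array and 0.36 on the accumbens array, each the highest of its region. On the hippocampus array it was 0.10 and on the striatum array 0.01, both within the range of their regions. The part of RNA quality in these low values was not tested. The second Ntrk2 probe set, M55293_at, was dim, with a median of 124 and 2 arrays under the floor, and its regional medians lay between 105 and 139.

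Ntrk3, which encodes the neurotrophin-3 receptor TrkC, showed no regional difference that passed the test. S60953_s_at had signals of 546 at the lowest, 623 at the median and 761 at the highest in cortex, and 476, 629 and 773 in amygdala. In hippocampus they were 323, 602 and 823, in striatum 391, 541 and 838, and in accumbens 321, 604 and 747. The differences of each region from the others lay between −0.13 in accumbens and 0.18 in cortex. Hippocampus, where Ntf3 was high, stood at −0.08 with a 95% interval from −0.28 to 0.13. S62933_i_at was dim, with a median of 66.6 and 4 arrays under the floor.

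**Figure D3:**
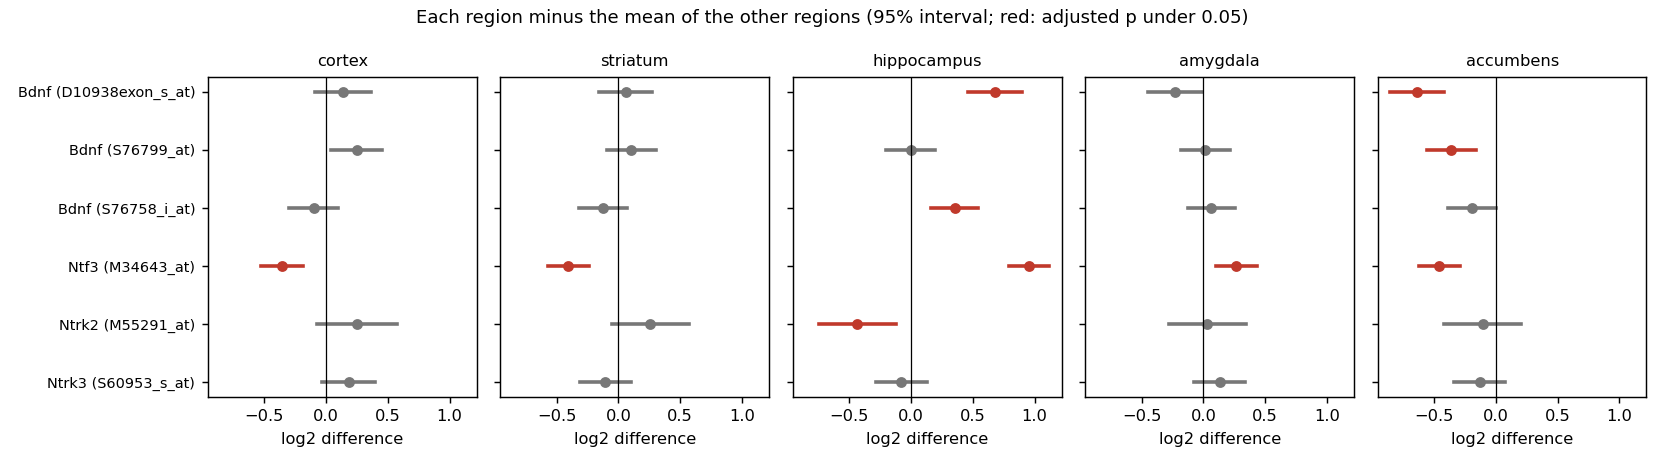
Log2 difference of each region from the mean of the other regions, with 95% intervals, for the 6 tested probe sets; red marks an adjusted p under 0.05. Ntf3 is marked in all 5 regions, Ntrk2 in hippocampus only, and Ntrk3 in none. Bdnf is marked in hippocampus by D10938exon_s_at and S76758_i_at, and in accumbens by D10938exon_s_at and S76799_at.

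Counted over the 6 tested probe sets, hippocampus had 4 called, 3 higher and 1 lower, where 23.3% of all 5244 tested probe sets were called. Accumbens had 3, all lower, with 20.9% called overall and 8.58% called lower. Cortex had 1 (17% overall), striatum 1 (13.9%) and amygdala 1 (26.1%), each of them Ntf3. Of the 60 combinations of a member probe set with a pair of regions, 20 were called, against 19.9% of all combinations. By probe set these were 7 pairs of 10 for Ntf3, 6, 3 and 2 for the Bdnf probe sets D10938exon_s_at, S76758_i_at and S76799_at, 2 for Ntrk2 and 0 for Ntrk3. In hippocampus 0 of 6 differed from the other regions by more than 1 on the log2 scale, a size that 2.12% of all tested probe sets passed together with the test.

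The profiles most like each member were taken over the 59 arrays as a description, since arrays of 1 animal or region are not independent. Ntf3 was most like Neurod1 (Pearson r 0.85), a transcription factor of granule neurons, Gpr161 (0.84), a G protein-coupled receptor of the primary cilium, and Tle1 (0.81), a transcriptional corepressor. Bdnf by D10938exon_s_at was most like Cnksr2 (0.77), a scaffold of Ras signalling, Nell2 (0.70), a secreted neuronal glycoprotein, and Nrp1 (0.68), a semaphorin receptor. S76758_i_at was most like Neurod1 (0.60), Atp2b3 (0.59) and Jun (0.58), and S76799_at like Vip (0.61), Gas7 (0.53) and Kcnv1 (0.51). Ntrk2 was most like Spock2 (0.87), Camk2n1 (0.84) and Ntm (0.84), at 0.82, 0.76 and 0.76 without cortex iP animal 5 and amygdala iP animal 1. The Spearman rank correlations of these pairs over the 59 arrays were lower, at 0.60, 0.71 and 0.59. For Ntrk3 no r exceeded 0.51, that of Itgb7.

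Other markers moved with region beside these genes. The 6 hippocampal neuron markers, Neurod1 among them, had a median log2 difference of 1.24 in hippocampus, and their summed signal ran from 6477 to 8122 there, against 3147 to 5285 elsewhere. The 6 oligodendrocyte markers were all higher in hippocampus (median 0.53), with sums from 84624 to 132491, against 33905 to 109368 elsewhere, and all lower in amygdala (median −0.94). Ttr, a choroid plexus transcript, was higher in hippocampus by 4.40, with signals from 621 to 47840, against 81.6 to 449 elsewhere. Of 7 astrocyte markers 1 was higher in hippocampus, and their sums of 71161 to 86790 lay within the 63094 to 90621 of the other regions. The part of cell composition in the regional levels of the neurotrophins and Trk receptors was not tested.

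Genes around the receptors were counted in a list of 100, of which 70 had a probe set with a single symbol and 60 were tested, each by its probe set of highest mean log2 signal. In hippocampus 20 were called, 3 higher and 17 lower, where 10.8% and 12.5% of all tested probe sets were. In striatum 17 were called, all higher (6.27% of all). Cortex had 11 higher and 2 lower (7.86% and 9.19% of all), amygdala 7 and 18 (13.3% and 12.8%), and accumbens 8 and 7 (12.3% and 8.58%). The median difference in hippocampus was −0.04 over the list and 0.01 over all tested probe sets.

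Transcripts that BDNF is known to induce in neurons gave most of the hippocampal calls. All 12 tested members were lower in hippocampus than in the other regions, where 12.5% of all probe sets were called lower, and their median difference was −0.62. The list was chosen with earlier results of these data known, so this count is a description and no independent test. Egr2, a zinc-finger transcription factor, was at −1.06 ± 0.11 SE (adjusted p = 4.37e-11) and Nptx2, a secreted pentraxin of synapses, at −1.05 ± 0.06 (adjusted p = 2.72e-19). Egr1 was at −0.80, Vgf, a secretory granule protein, at −0.68, Junb at −0.63 and the neuropeptide Npy at −0.61. Arc, a synaptic cytoskeletal protein, was the weakest at −0.17 (adjusted p = 0.0492). The count was 11 or 12 under each other setting, and 12 without the 5 arrays nearest to another region. Npy and Sst are also interneuron markers, of which 4 of 7, both of these among them, were lower in hippocampus (12.5% of all probe sets). Of 7 medium spiny neuron markers 6 were lower in hippocampus, with a median of −2.04. The part of interneurons and of medium spiny neurons was not tested.

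In striatum 9 of the 12 were higher (median 0.34), where 6.27% of all probe sets were called higher. Egr2 was up by 0.71 ± 0.11 (adjusted p = 2.57e-06) and Homer1, a postsynaptic scaffold, by 0.52 ± 0.06 (adjusted p = 4.19e-09). Cortex had 6 higher (7.86% of all probe sets), accumbens 7 higher and 1 lower (12.3% and 8.58%), and amygdala 4 higher and 6 lower (13.3% and 12.8%). Hippocampus, where all 12 were lower, was the region in which Bdnf by D10938exon_s_at was highest. They are also induced by neuronal activity and other stimuli, and these were not measured here. The comparisons of the 5 regions share arrays, so their counts are not independent.

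**Figure D4:**
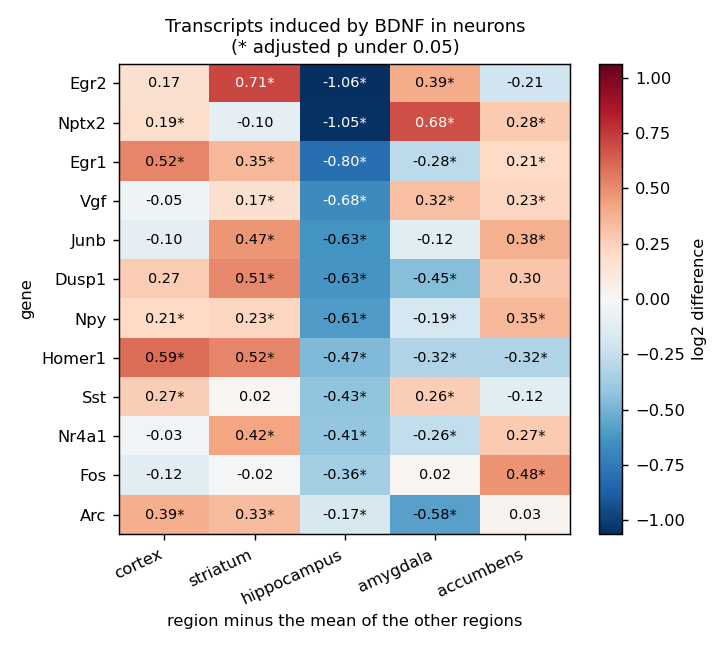
Log2 difference of each region from the mean of the other regions for the 12 tested transcripts induced by BDNF in neurons; blue is lower, red higher, and a star marks an adjusted p under 0.05. The hippocampus column is blue and starred in all 12 rows, and 9 striatum cells are starred, all of them higher.

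The remaining groups were mixed. In the phospholipase C and calcium arm 3 of 9 were lower in hippocampus (12.5% of all probe sets), 3 of 9 lower in amygdala (12.8%) and 4 of 9 higher in striatum (6.27%). Plcg1, the phospholipase that docks on Trk receptors, was at −0.40 ± 0.06 in hippocampus (adjusted p = 4.05e-07). Camk4, a calcium-dependent kinase that acts on CREB, was at −2.05 ± 0.36 in hippocampus (adjusted p = 1.04e-05) and 1.53 ± 0.36 in striatum (adjusted p = 0.00157). Itpr1, the inositol trisphosphate receptor, was higher in striatum by 0.63 ± 0.07 (adjusted p = 1.17e-09). Of the PI3 kinase and Akt arm 0 of 10 were called in hippocampus, cortex or striatum (23.3%, 17% and 13.9% of all probe sets). In amygdala 1 was higher and 1 lower, and in accumbens 1 was lower (26.1% and 20.9% of all called). Of 7 in the Ras and MAP kinase arm, Dusp1 alone was called in hippocampus, at −0.63 (23.3% of all probe sets called). Dusp1 is also 1 of the 12 transcripts induced by BDNF that were counted above. In that arm 2 were higher and 1 lower in amygdala (13.3% and 12.8% of all probe sets). In cortex 1 was lower (9.19% of all) and in striatum 1 was higher (6.27% of all).

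Among other ligands and receptors, Gfra1 and Gfra2, which bind ligands of the GDNF family, were both higher in striatum, by 0.59 and 0.56 (adjusted p = 2.18e-06 and 4.33e-06). In hippocampus Gfra1 was higher by 0.43 and Gfra2 lower, at −0.45. Ngfr, the p75 receptor that all neurotrophins bind, was at 0.04 in hippocampus by its brighter probe set, U25650_f_at (adjusted p = 0.787). Its dimmer probe set, X05137_at, had its lowest regional median in hippocampus, at 758. Of 11 genes of proneurotrophin processing and secretion, 2 were called in hippocampus, where 23.3% of all probe sets were, among them Plat, the tissue plasminogen activator, at −0.29 ± 0.07 (adjusted p = 0.00165). Pcsk2, a prohormone convertase, was higher in striatum by 0.43 ± 0.07 (adjusted p = 1.29e-05).

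The study asked how gene expression in these regions differs between the iP and iNP lines. Of the 6 tested member probe sets 0 differed between the lines over all regions, where 2.65% of all probe sets did. The log2 difference, iP minus iNP on animal means with 6 animals each, was 0.04 for D10938exon_s_at of Bdnf (95% interval −0.18 to 0.27) and 0.00 for Ntf3 (−0.15 to 0.14). It was −0.08 for Ntrk2 (−0.37 to 0.21) and 0.08 for Ntrk3 (−0.08 to 0.24). S76799_at was at −0.02 (−0.19 to 0.15) and S76758_i_at at −0.07 (−0.21 to 0.08). The adjusted p-values of limma lay between 0.752 and 0.993, and 0 of the 6 had an unadjusted p under 0.05, as 11.9% of all probe sets had. iP animal 6 entered with the 4 regions other than cortex.

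The lines also overlapped within regions. In hippocampus, Ntf3 had 1568, 1714 and 1841 in iP (lowest, median, highest), against 1271, 1668 and 2082 in iNP. D10938exon_s_at of Bdnf had 409, 650.3 and 886 in iP hippocampus, against 494, 666 and 869 in iNP hippocampus. In accumbens that set had 195, 329 and 473 in iP, against 281, 311 and 341 in iNP. In both lines the hippocampus median of these 2 probe sets was the highest of the 5 regions. Within animals, hippocampus exceeded the other regions by a mean of 0.66 in iP and 0.72 in iNP for Bdnf, and by 0.99 in iP and 0.92 in iNP for Ntf3.

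Tested region by region, 0 of 6 were called in any region. Of all probe sets, 0.229% were called in cortex. That share was 0.839% in striatum, 0.667% in hippocampus and 0.725% in amygdala, and in accumbens it was 0.572%. The differences nearest to a call were those of S76758_i_at in striatum (−0.26, 95% interval −0.54 to 0.02), S76799_at in amygdala (−0.23, −0.47 to 0.01) and S76758_i_at in amygdala (−0.27, −0.58 to 0.03). For Ntrk2 in cortex the difference of −0.45 had a 95% interval from −1.42 to 0.51, and it was 0.11 without iP animal 5. The test of a line by region interaction called 0 of 6 members (adjusted p 0.956 to 0.991, unadjusted 0.117 to 0.925) and 0% of all probe sets, with 242 of 5244 at an unadjusted p under 0.05.

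In the list of 60 genes around the receptors, 2 differed between the lines over all regions, both lower in iP, where 1.45% of all probe sets were called lower. Shc3, an adaptor that binds activated Trk receptors in neurons, was at −0.40 ± 0.08 SE (limma adjusted p = 0.00640). By region it was between −0.63 in cortex and −0.04 in hippocampus, with no region called. Npy was at −0.24 ± 0.05 (adjusted p = 0.0149), a call lost without iNP animal 12 (−0.22, adjusted p = 0.0510). The list's median was −0.01, as over all tested probe sets.

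**Figure D5:**
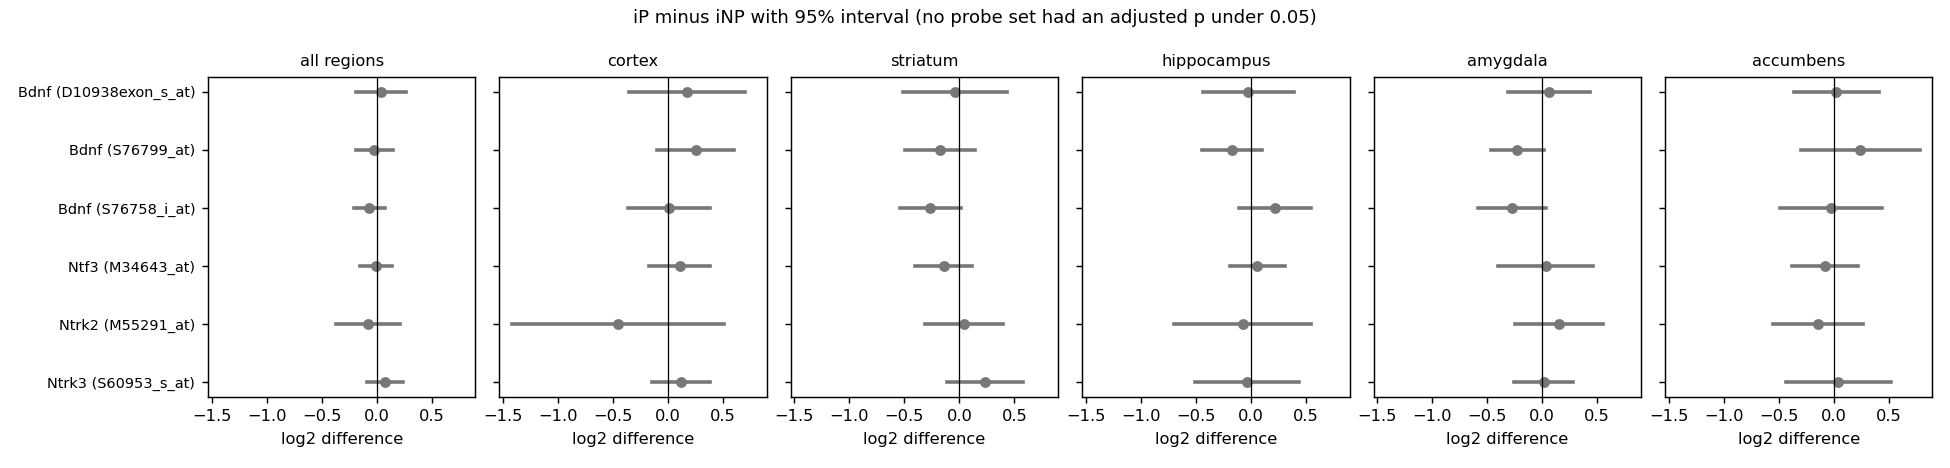
Log2 difference of iP minus iNP, with 95% intervals, for the 6 tested probe sets over all regions and in each region. Every interval includes 0, and the widest is that of Ntrk2 in cortex.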

How the data were processed

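Transcript levels were read from Affymetrix 3′ arrays, 1 per animal and region. The deposited values are intensities on a linear scale, and the authors' scaling set the 2% trimmed mean of every array to 1000, as read from the values. Which program computed these intensities was not stated in any label or header. Groups came from the title and genotype labels, since the source label names iNP on every array. Values were floored at 16 and taken to log2. Of 8799 probe sets, 59 controls were removed, and the lowest 40% by mean were left out, so that 5244 were tested. Gene symbols came from the platform annotation (7006 probe sets with 1 symbol, 308 with several, 1426 with none). A probe set ending in _s_at can match several sequences.

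limma 3.58.1 in R 4.3.3 was used, with a variance trend and Benjamini-Hochberg adjustment over all tested probe sets, with an adjusted p under 0.05 as threshold. Lines were compared on animal means of region-centred values, and by region. Regions were compared with the animal as a block. Pairing came from the animal number in the titles. Deviations of arrays of 1 animal correlated by 0.06 on average, and by less than 0 in 5 of 12 animals. The fits were tested on simulated data. Alternatives were other filters, floors, normalizations, weights and blocks, and leaving out animals or arrays. Leaving out the 5 arrays nearest to another region, and every setting for the transcripts induced by BDNF, Shc3 and Npy, were added after seeing the data. The members, gene lists and the leaving out of 2 arrays were chosen with earlier results of these data known. Named genes were all members, the 3 most alike genes of each tested set, and up to 2 called genes of each pathway group, with others of the list named for their role. The number of arrays limits the precision. Rats are separate animals within a line.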

Additional observations from a re-analysis of the deposited data

Results flagged for a closer look

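Within a region and line, 60 groups of 5 or 6 arrays were examined for a single array far from the others, and 8 stood out at a level that chance gives in about 1 group in 20. Ntrk2 had 4 of them, all low and all in iP. Its log2 signal was 9.77 in cortex animal 5 (others 12.50 to 12.64), 11.54 in striatum animal 2 (12.19 to 12.57), 10.12 in hippocampus animal 2 (11.90 to 12.10) and 11.19 in amygdala animal 5 (12.22 to 12.50). Ntrk3 was low in iNP hippocampus animal 12, at 8.33 (others 9.16 to 9.36), and in iNP amygdala animal 9, at 8.89 (others 9.26 to 9.46). Bdnf by S76758_i_at was low in iP accumbens animal 4, at 7.36 (others 8.32 to 8.68), an array nearest to amygdala by its whole profile. Ntf3 was high in iNP accumbens animal 7, at 9.95 (others 9.43 to 9.61).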

How the results depend on the processing

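Of 32 called values, 30 of members and those of Shc3 and Npy between the lines, 603 of 655 alternatives kept the call, 52 lost it and 0 reversed. The losses lay in Npy (1 setting), in Ntrk2 (hippocampus and its pairs with cortex and striatum), in Ntf3 in amygdala, and in region pairs of Bdnf. Of 102 uncalled values, 20 of 2121 alternatives became called, and 118 changed sign while uncalled both times. In no alternative was a member called between the lines or for the interaction.

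The members called went to 2 in cortex, 2 in striatum, 6 in hippocampus and 6 in accumbens, and to 33 of 130 pairs, with no filter on dim probe sets, which brings in all 13. That setting also ended the Ntrk2 calls in hippocampus (adjusted p = 0.0519) and in its pairs with cortex (0.0657) and striatum (0.0596). With the lowest 60% left out, only 3 are tested, and the counts were 2 in hippocampus, 1 in accumbens and 9 of 30 pairs. The shares of all probe sets called under these filter settings are not given here, so these counts cannot be set against them. Cortex had 2 without cortex iP 5 and amygdala iP 1, and 2 without the 5 arrays nearest to another region. Leaving out 1 animal gave 1 to 2 in cortex, 0 to 1 in amygdala, 3 to 4 in hippocampus and 15 to 21 pairs. With no replicate block, hippocampus had 3 and the pairs 18. With the animal as a random replicate block these were 4 and 19. The block changed no other count of members.

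With no filter, the dim Ntf3 set was higher in hippocampus by 2.65 (limma adjusted p = 1.71e-10), rc_AI030286_s_at by 0.67 (1.43e-05) and X67108_at by 0.43 (0.0293). The dim Ntf3 set was also higher in iP than in iNP amygdala by 1.42, at an unadjusted p of 0.000983 and an adjusted p of 0.143. The brighter Ntf3 set, M34643_at, was at 0.03 in that comparison (0.880 and 0.981). In accumbens the dim Ntf3 set was at −0.92, lower in iP (0.0666 and 0.767). The dim Bdnf set S71201mRNA_at was higher in iP by 1.29 in hippocampus (unadjusted p = 0.00712, adjusted p = 0.380) and by 1.01 in accumbens (0.0416 and 0.721). X67108_at was higher in iP cortex by 0.52 (0.0266 and 0.821). For rc_AI030286_s_at, iP minus iNP was 0.37 in amygdala (0.0429 and 0.604) and −0.63 in cortex (0.0596 and 0.873). In the limma interaction test, unadjusted p-values were 0.00462 for the dim Ntf3 set, 0.00856 for S71201mRNA_at and 0.0111 for rc_AI030286_s_at. Each had an adjusted p of 0.976. The 7 dim sets limit what can be said of variants.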

Other observations

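Ntf4, which encodes another ligand of TrkB, was dim on both probe sets, with regional medians of 69.9 to 94.9 for M86742cds_s_at and 50.4 to 84.2 for Y07659exon_at. Ngfr, the p75 receptor, had 2 probe sets that ordered the regions differently. X05137_at had its highest median in accumbens, at 1093 (965 to 1302), with the other regions at medians from 758 in hippocampus to 916 in amygdala. U25650_f_at had its lowest median there, at 2762 (2333 to 4750.5), with medians from 3131 to 3410.0 in the other regions. These levels were not tested against each other.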
